A study of Mus musculus with 6 samples.

Results

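The 10 genes described here encode the alpha- and beta-tubulin isotypes of mouse pancreatic tumor cells. They were taken by symbol from a table of 24493 genes. The alpha members, 4 in number, are Tuba1a, Tuba1b, Tuba1c and Tuba4a, and the beta members, 6 in number, are Tubb2a, Tubb2b, Tubb3, Tubb4b, Tubb5 and Tubb6. They were measured in 2 RNA sequencing libraries labelled GAFCP and in 4 control libraries. All libraries came from cells of a single tumor line, 6419c5 in the titles, sorted out of tumors that had been implanted subcutaneously in C57BL/6 mice. GAFCP combines gemcitabine, abraxane, an agonist of CD40 and blockade of CTLA-4 and of PD-1, while the controls carry the treatment label control, with no vehicle or antibody named. Abraxane is albumin-bound paclitaxel. No library had paclitaxel alone, so its part in any difference cannot be told apart from that of the other agents. The labels state no dose, time, animal age or sort marker, and do not say if each library is a separate animal. What the p-values below weigh is thus the variation among these libraries alone, and it may be technical. All levels are TPM (transcript abundance relative to the library total), a measure scaled for transcript length and to the same total in every library, so levels of different genes can be compared. TPM keeps no sequencing depth, so the depth of each library is unknown.

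Microtubules are hollow polymers of alpha-beta tubulin dimers. Paclitaxel binds the beta subunit inside the polymer and stabilizes it, which blocks mitotic spindles and intracellular transport. Vertebrates carry several alpha and beta genes whose proteins share a conserved body and differ mostly in the acidic tail at the carboxy end, where many modifying enzymes and motor proteins act. Cells also adjust tubulin mRNA to the pool of free dimers: in human cells the ribosome-associated factor TTC5 recognizes newly made tubulin chains and starts decay of their mRNA when free dimers are abundant. Among beta isotypes, Tubb5 is the common form of most tissues and of dividing cells, Tubb3 is typical of neurons and is also made by many carcinomas, where it has been studied as a marker of taxane response, and Tubb6 is found widely outside the nervous system.

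The ends of the beta coding sequences are shown because they encode the tails that set the isotypes apart, and because they show which genes a short read can separate. Each is the last 75 coding bases, 5′ to 3′ on the gene's strand, from GENCODE M21 transcripts on mm10. Capitals mark bases with no identical partner in a pairwise alignment with the same stretch of Tubb5, the beta gene with the highest level.
Tubb5: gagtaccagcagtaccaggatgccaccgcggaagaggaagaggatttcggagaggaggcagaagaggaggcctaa
Tubb4b: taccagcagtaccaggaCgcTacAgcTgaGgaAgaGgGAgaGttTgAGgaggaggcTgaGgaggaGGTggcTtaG
Tubb2a: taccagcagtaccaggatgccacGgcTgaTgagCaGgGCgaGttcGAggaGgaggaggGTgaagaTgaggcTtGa
Tubb2b: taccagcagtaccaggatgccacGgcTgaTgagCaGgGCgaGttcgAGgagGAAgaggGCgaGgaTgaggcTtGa
Tubb3: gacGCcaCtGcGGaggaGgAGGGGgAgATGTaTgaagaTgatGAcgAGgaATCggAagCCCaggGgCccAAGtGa
In Tubb3, 36 of the 75 bases had no identical partner in Tubb5 in that alignment, against 20 in Tubb4b. The Tubb3 stretch opens at a later point of the shared coding sequence than the Tubb5 stretch does. Its first bases resemble bases further inside the Tubb5 stretch, with which the alignment did not pair them. Some capitals in Tubb3 therefore mark this offset, and the count is not a measure of how far the tails differ. The stretches lie at chr17:35834982-35835056 for Tubb5 and chr2:25222308-25222382 for Tubb4b, both on the minus strand, and at chr8:123421608-123421682 on the plus strand for Tubb3. Those of Tubb2a and Tubb2b are on the minus strand, at chr13:34074468-34074542 for Tubb2a and chr13:34127471-34127545 for Tubb2b. Tubb2a and Tubb2b differed from each other at 3 of 75 bases. Some bases that this pair shares are capitals in Tubb2a and not in Tubb2b, or the reverse, because each was aligned with Tubb5 separately. Capitals therefore do not show where the pair differs. The Tubb6 stretch and those of the alpha genes are not shown here.

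How far a member's value can depend on the way Salmon divided reads was read from the same transcripts. Salmon estimates levels from reads that can fit several transcripts, and a stretch found in more than 1 gene cannot be placed by its sequence alone. Of all 31-base words in the coding transcripts of Tubb3, 3.21% also occurred in a transcript of another gene, and the figures were 3.94% for both Tubb5 and Tubb6 and 3.01% for Tuba4a. They were 45.9% for Tubb2b, 56.4% for Tubb2a, 63.9% for Tuba1c, 64.6% for Tubb4b, 75.4% for Tuba1b and 77.0% for Tuba1a. Tubb4b shared most with the pseudogene Tubb4b-ps1 (54.5% of its words), Tubb2a with Tubb2b (51.1%) and Tuba1b with Tuba1c (64.5%). Over whole coding sequences, Tuba1a and Tuba1b were 98.3% identical and Tubb2a and Tubb2b 96.5%, while Tubb3 and Tubb5 were 81.5% identical. The split between Tuba1a, Tuba1b and Tuba1c, and that between Tubb2a and Tubb2b, is therefore uncertain in every value below, and the level of Tubb4b can depend on whether its pseudogene was among the transcripts used, which the sources used here do not state.

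**Figure D1:**
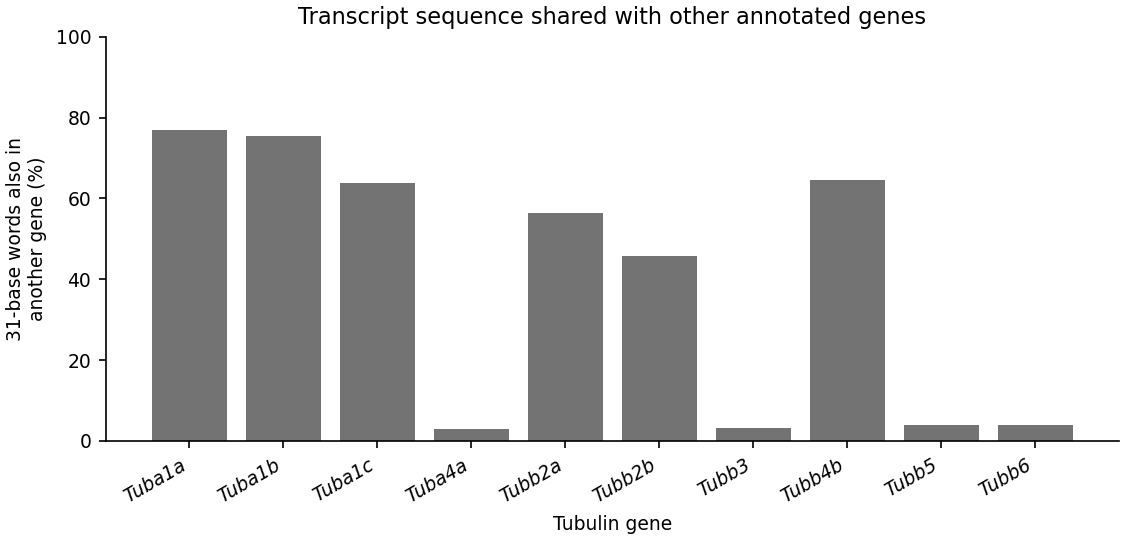
Bars give, for each tubulin gene, the percentage of distinct 31-base words of its coding transcripts that also occur in a transcript of another gene in GENCODE M21. Tuba4a, Tubb3, Tubb5 and Tubb6 lie between 3.01% and 3.94%, and the other 6 genes lie between 45.9% and 77.0%.

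The levels of the 10 genes did not move together. With GAFCP, 3 genes rose (Tubb3, Tubb6 and Tuba1b), 3 fell (Tuba4a, Tubb4b and Tubb2b) and 4 did not pass the test (Tuba1a, Tuba1c, Tubb2a and Tubb5), in limma's test on log2(TPM + 1) at a Benjamini-Hochberg adjusted p under 0.05 over 13720 genes. All 10 passed the filter on low values through both groups, each having at least 40.1 TPM in every library. Of all genes tested 19.0% were called higher and 28.5% lower with GAFCP, so a count of 3 and 3 among 10 genes is near the background. The values of 6 of the 10 did not overlap between the groups, 3 higher and 3 lower with GAFCP, where 61.6% of all tested genes did not overlap, 24.7% higher and 36.9% lower. The median log2 change was 0.0045 over the 10 genes and -0.07 over all genes tested. Without GAFCP library 1 the count of called genes over the whole table was 4258, and without GAFCP library 2 it was 4313, against 6515 with all libraries. The same 6 members were called whichever 1 library was left out. What sets the members apart from one another is the size of the change, which ran from -0.45 to 1.55.

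Tubb3, on chromosome 8 from 123411424 to 123422015 (mm10, plus strand), had 134.4 and 142.2 TPM in the GAFCP libraries, against 45.8, 48.1, 45.4 and 46.9 TPM in the control libraries. Every GAFCP value was far above the control range, which spanned less than 3 TPM. It averaged 138.3 ± 5.54 TPM with GAFCP (SD, n = 2) and 46.6 ± 1.23 TPM in controls (SD, n = 4), a 2.97-fold ratio of means. The difference on the log2 scale was 1.55 with an SE of 0.04 (limma adjusted p = 1.3e-07). Of the tested genes, 2.24% had a larger log2 change. Over 19 alternative fits its log2 change stayed between 1.47 and 1.62 and the largest adjusted p was 8.6e-04. Of the beta stretches shown above its tail stretch has the most capitals, a count that depends on the offset described there. Few of its 31-base words occur elsewhere.

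Tubb6, on chromosome 18 from 67390717 to 67402749 (plus strand), had 152.3 and 166.4 TPM in the GAFCP libraries, against 89.5, 93.7, 87.0 and 91.2 TPM in the control libraries. The groups did not overlap, and the GAFCP libraries were further apart than the controls were. It averaged 159.4 ± 9.997 TPM with GAFCP (SD, n = 2) and 90.3 ± 2.82 TPM in controls (SD, n = 4). It rose by 0.81 on the log2 scale, with an SE of 0.05 (limma adjusted p = 8.0e-06). The log2 change lay between 0.75 and 0.88 over the alternatives, and 6.68% of tested genes had a larger one. Tubb3 and Tubb6 were 85.9% identical over their coding sequences, more than either was to any other beta member.

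Tubb5, the major beta gene on chromosome 17 from 35833921 to 35838306 (minus strand), had 511.0 and 506.8 TPM in the GAFCP libraries, against 495.3, 524.3, 483.2 and 508.1 TPM in the control libraries. Both GAFCP values lay inside the control range. Its log2 change was 0.018 ± 0.038 (SE; limma adjusted p = 0.72), with a sign that turned to -0.025 under quantile normalization and -0.0089 after rescaling without the 50 most abundant genes. With median-of-ratios scaling it was 0.09 and passed the test (adjusted p = 0.0301); there 5 members were called higher and 3 lower, against 25.9% and 24.2% of all genes. A change of Tubb5 as large as that of Tubb6 was not seen under any of these scalings.

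Tubb4b, a broadly made isotype that also builds cilia, had 122.4 and 129.0 TPM in the GAFCP libraries, against 165.8, 166.6, 160.8 and 163.5 TPM in the control libraries. Both GAFCP values were below every control. Its log2 change was -0.38 ± 0.04 (SE; limma adjusted p = 1.0e-04), and it fell under every alternative, by 0.31 to 0.43 on the log2 scale. The gene lies on chromosome 2 from 25222160 to 25224702 (minus strand), and its reads can also fit Tubb4b-ps1.

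Tubb2a and Tubb2b, close copies on chromosome 13 that are prominent in the nervous system, were the least abundant of the 6 beta members with GAFCP. Tubb2a lies from 34074274 to 34078007 and Tubb2b from 34126748 to 34130466, both on the minus strand. Tubb2b had 55.6 and 54.6 TPM in the GAFCP libraries, against 64.9, 68.5, 64.0 and 67.3 TPM in the control libraries. The groups did not overlap, and the log2 change was -0.26 ± 0.04 (SE; limma adjusted p = 0.0020). Tubb2a had 46.8 and 40.1 TPM in the GAFCP libraries, against 48.7, 49.1, 43.0 and 46.5 TPM in the control libraries. These ranges overlapped and the gene did not pass (log2 change -0.11 ± 0.08, SE; limma adjusted p = 0.296). Because reads of the pair are hard to divide, their sum was also fitted. The pair summed to 102.4 and 94.7 TPM with GAFCP, against 113.6, 117.6, 106.9 and 113.8 TPM in controls, and that sum fell by 0.20 on the log2 scale (limma adjusted p = 0.0152).

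**Figure D2:**
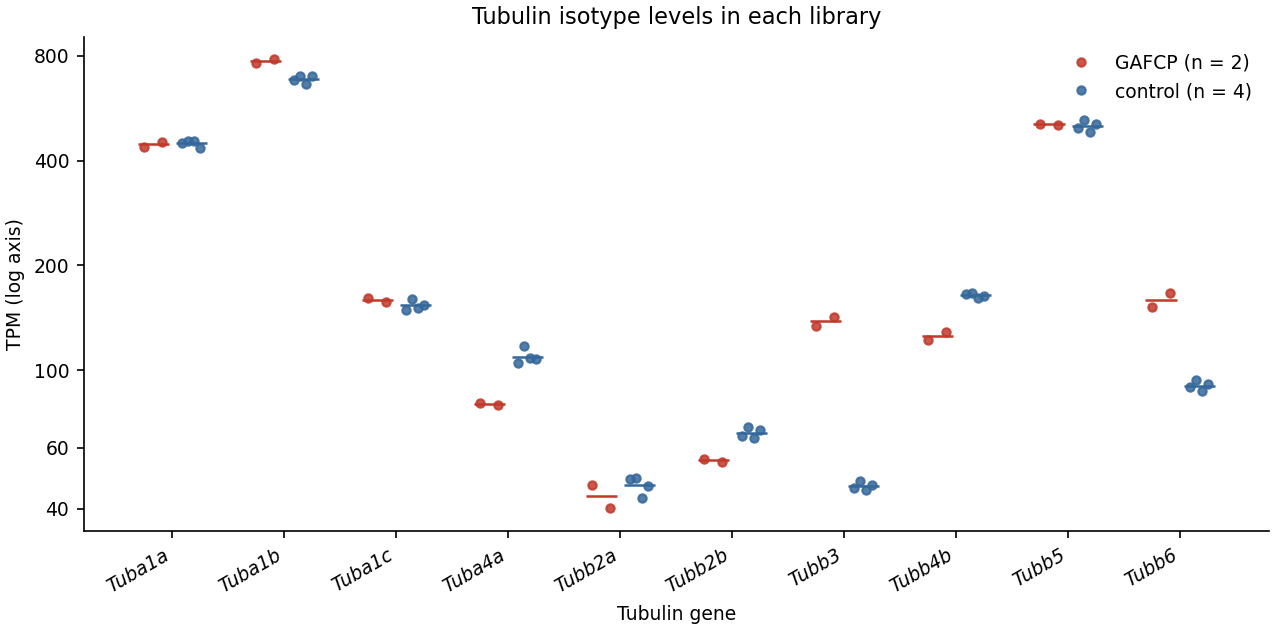
Points give the TPM of each library on a log axis for the 10 tubulin genes, GAFCP libraries (n = 2) left of control libraries (n = 4), and horizontal lines give group means. Tubb3 lies at 134.4 and 142.2 TPM with GAFCP and between 45.4 and 48.1 TPM in controls, while the Tubb5 and Tuba1a points of the groups overlap.

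Among alpha genes no rise was as large as those of Tubb3 and Tubb6. The genes Tuba1b (98931425 to 98934565, minus strand), Tuba1a (98949837 to 98953703, minus strand) and Tuba1c (99029891 to 99038110, plus strand) lie close together on chromosome 15. Tuba1b, the common alpha isotype of dividing cells, had 764.8 and 781.6 TPM in the GAFCP libraries, against 679.4, 699.6, 664.9 and 697.2 TPM in the control libraries. The groups did not overlap, and the gene rose by 0.17 ± 0.03 (SE, log2; limma adjusted p = 0.0031). This call was lost under quantile normalization, where the log2 change was 0.030 (adjusted p = 0.365). Tuba1a, the alpha isotype typical of neurons, had 438.1 and 452.5 TPM in the GAFCP libraries, against 447.7, 455.9, 454.8 and 434.3 TPM in the control libraries. Tuba1c had 161.5 and 156.5 TPM in the GAFCP libraries, against 149.2, 160.5, 150.5 and 153.9 TPM in the control libraries. The groups overlapped for both, with adjusted p of 0.838 and 0.343 in limma's test, and the Tuba1c change of 0.05 became 0.12 and passed with median-of-ratios scaling (adjusted p = 0.0260). The sum of these 3 near-identical genes was 1364 and 1391 TPM with GAFCP, against 1276, 1316, 1270 and 1285 TPM in controls. That sum rose by 0.10 ± 0.03 (SE, log2; limma adjusted p = 0.0213).

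Tuba4a, whose product is made without the terminal tyrosine, changed the other way. It had 80.4 and 79.5 TPM in the GAFCP libraries, against 104.8, 117.0, 108.6 and 107.5 TPM in the control libraries. Both GAFCP values were below every control. It fell by 0.45 on the log2 scale (log2 change -0.45 ± 0.05, SE; limma adjusted p = 2.1e-04), the largest fall among the 10 genes, and by 0.38 to 0.47 over the alternatives. The gene lies on chromosome 1 from 75214228 to 75219865 (minus strand).

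**Figure D3:**
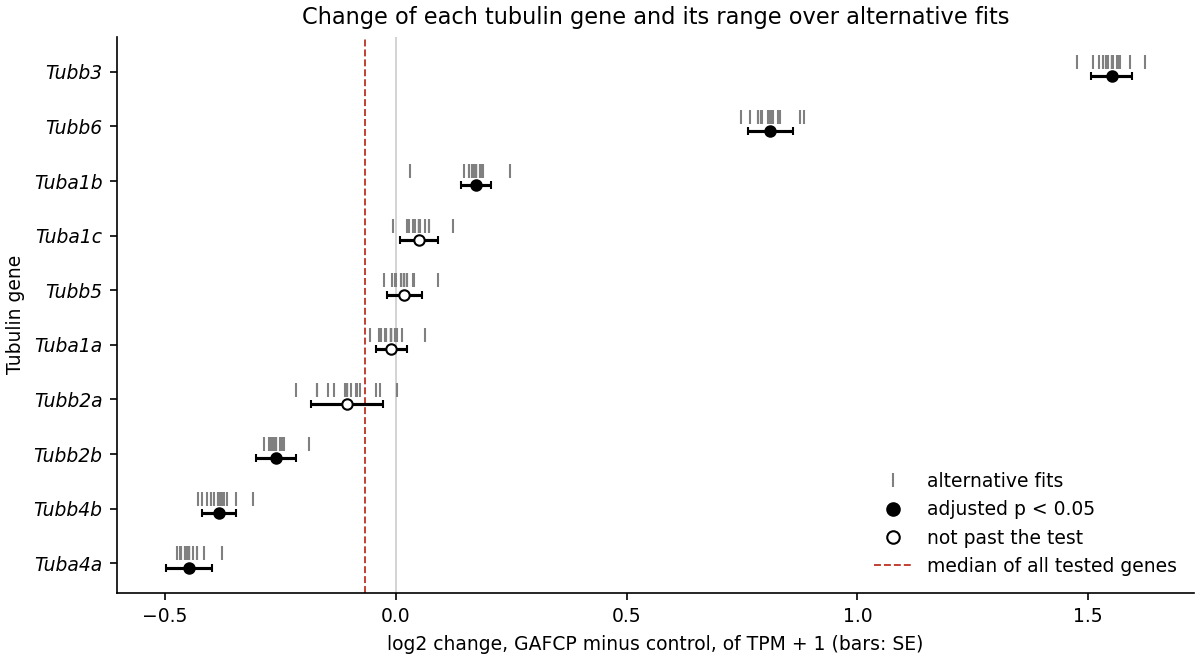
Circles give the log2 change (GAFCP minus control, on TPM + 1) of each tubulin gene with its SE, filled where the limma adjusted p was under 0.05, and grey ticks give the value under each alternative fit. Tubb3 (1.55) and Tubb6 (0.81) stand well to the right of the dashed median of all tested genes (-0.07), and the ticks of Tuba1b reach from 0.03 to 0.25.

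The order of the levels changed accordingly. In both groups Tuba1b, Tubb5 and Tuba1a were the most abundant, in that order. In controls Tubb3 and Tubb2a were the lowest of the 10 at 46.6 ± 1.23 and 46.8 ± 2.80 TPM (SD, n = 4), which did not differ beyond their spread. With GAFCP Tubb3 ranked 6, above Tubb4b (125.7 ± 4.64 TPM, SD, n = 2). Tubb6 ranked 4 with GAFCP, at 159.4 TPM beside 159.0 TPM for Tuba1c, which did not differ beyond their spread, and ranked 7 in controls. Tubb4b ranked 7 with GAFCP and 4 in controls.

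Isotype shares compare genes within a library and do not depend on a scaling factor for each library. Tubb3 held 13.1% and 13.7% of summed beta-tubulin TPM in the GAFCP libraries, against 5.03% to 5.14% in the 4 control libraries. The share of Tubb6 was 14.9% and 16.0% in the GAFCP libraries, against 9.84% to 9.87% in controls. Tubb6 thus held an almost fixed share among the controls and a wider one between the GAFCP libraries. Tubb5 held 49.98% and 48.8% of the beta sum with GAFCP, against 54.4% to 55.2% in controls, although its own level lay inside the control range. The share of Tubb4b was 12.0% and 12.4% with GAFCP, against 17.5% to 18.2% in controls. Tubb2b held 5.43% and 5.26% with GAFCP, against 7.13% to 7.29% in controls, and Tubb2a held 4.58% and 3.86% with GAFCP, against 4.86% to 5.35% in controls. All 6 beta shares were apart between the groups, but shares of a sum are tied to one another, since a higher share of Tubb3 and Tubb6 leaves less for the rest.

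In the alpha sum Tuba1b held 52.9% and 53.2% with GAFCP, against 48.2% to 50.1% in controls, and Tuba4a held 5.57% and 5.40% with GAFCP, against 7.59% to 8.17% in controls. Tuba1a held 30.3% and 30.8% with GAFCP, against 31.2% to 33.0% in controls. The Tuba1c shares overlapped, at 11.2% and 10.6% with GAFCP and 10.8% to 11.2% in controls. A two-sided exact permutation test over the 15 arrangements of the libraries gave p = 0.0667 for 8 of the 10 shares (adjusted p = 0.0833 over the 10 shares), and no smaller p is possible with these group sizes. The same exact permutation test gave p = 0.133 for Tuba1a (adjusted p = 0.148) and p = 0.667 for Tuba1c. No share could therefore pass 0.05 in this design, whatever its size.

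**Figure D4:**
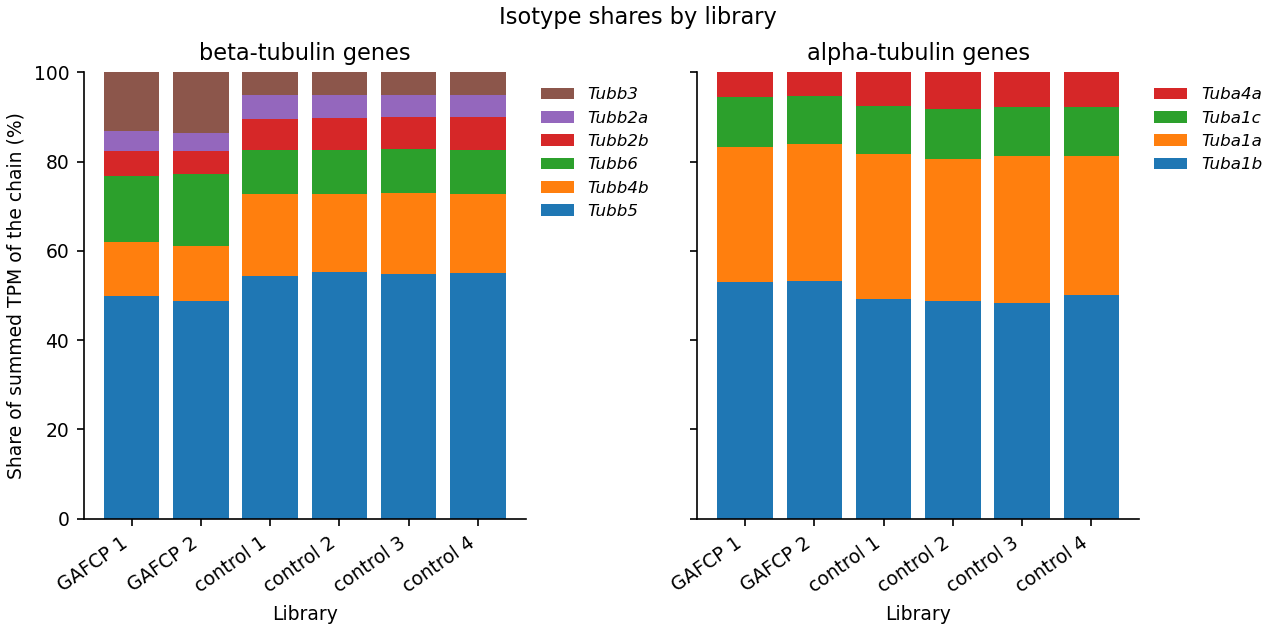
Stacked bars give the percentage of summed TPM held by each beta gene (left) and each alpha gene (right) in each library, GAFCP libraries first. Tubb3 takes 13.1% and 13.7% of the beta bar with GAFCP and 5.03% to 5.14% in controls. Tubb6 takes 14.9% and 16.0% with GAFCP and 9.84% to 9.87% in controls, and Tubb4b is narrower with GAFCP.

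The 6 beta genes summed to 1023 and 1039 TPM with GAFCP, against 910.0, 950.3, 883.3 and 923.5 TPM in controls. The difference was 0.17 on the log2 scale (exact permutation p = 0.0667). The 4 alpha genes summed to 1445 and 1470 TPM with GAFCP, against 1381, 1433, 1379 and 1393 TPM in controls, a difference of 0.062 on the log2 scale (exact permutation p = 0.0667) that turned to -0.033 under quantile normalization. The ratio of the beta to the alpha sum was 0.708 and 0.707 with GAFCP, against 0.659, 0.663, 0.641 and 0.663 in controls. That ratio was higher in both GAFCP libraries than in any control (exact permutation p = 0.0667), and it does not depend on scaling by a factor for each library. Together the 10 genes made up 0.247% and 0.251% of all TPM with GAFCP, against 0.226% to 0.238% in controls.

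Of 10 other tubulin genes, 4 never reached 1 TPM, so no test was made on them. Among them, Tubb1, the isotype of platelets, was listed at 0 in all 6 libraries, and Tuba3b was listed at 0 in 5 of them. Of the 6 tested, 2 rose, or 33.3%, where 19.0% of all tested genes were called higher and 47.5% in either direction. Tubg1, the gamma-tubulin that nucleates microtubules at centrosomes, had 53.5 and 54.5 TPM with GAFCP, against 47.3, 48.5, 48.0 and 47.8 TPM in controls (log2 change 0.17 ± 0.04, SE; limma adjusted p = 0.0090). Tube1, the epsilon-tubulin of centrioles, averaged 3.15 TPM with GAFCP and 1.94 TPM in controls (limma adjusted p = 0.0138). Neither call held with a single GAFCP library: without GAFCP library 1 the adjusted p was 0.0562 for Tubg1 and 0.108 for Tube1, and without GAFCP library 2 it was 0.0869 for Tubg1 and 0.0600 for Tube1. Tubb4a averaged 1.59 TPM with GAFCP and 2.23 TPM in controls, and Tubd1, the delta-tubulin, averaged 4.21 TPM with GAFCP and 4.47 TPM in controls. Tuba8 averaged 1.43 TPM with GAFCP and 1.30 TPM in controls, and Tubg2 1.68 TPM with GAFCP and 1.52 TPM in controls. None of these 4 passed the test.

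Of the genes that fold tubulin or adjust its mRNA, Cct2 rose and 6 fell. The list holds the ring-shaped chaperonin CCT, its helper prefoldin, the cofactors that assemble the dimer, and the decay factors. Of its 26 genes 26.9% were called, against 47.5% of all genes tested, and their median log2 change was -0.06, against -0.07 over all genes. Cct2, a CCT subunit, had 279.7 and 275.0 TPM with GAFCP, against 232.3 to 244.9 TPM in controls (log2 change 0.22; limma adjusted p = 0.0015). Another CCT subunit, Cct5, fell by 0.11 (limma adjusted p = 0.0430), a call lost in 10 alternatives, and the remaining CCT subunits did not pass. The prefoldin subunits Pfdn1 and Pfdn2 fell by 0.31 each (limma adjusted p = 0.0012 and 8.5e-04). Ttc5 averaged 26.6 ± 0.36 TPM with GAFCP (SD, n = 2) and 27.8 ± 1.05 TPM in controls (SD, n = 4) and did not pass (log2 change -0.06; limma adjusted p = 0.355). Cnot11, a subunit of the CCR4-NOT deadenylase that acts with TTC5 in human cells, averaged 13.97 TPM with GAFCP and 19.3 TPM in controls and fell by 0.44 (limma adjusted p = 6.3e-04). With median-of-ratios scaling 7 genes of this list were called higher and 5 lower, and 2 higher and 10 lower both under quantile normalization and after rescaling without the 50 most abundant genes.

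Genes whose products modify tubulin were lower where they changed. Of 16 tested, 9 fell and 0 rose, so 56.2% were called, all lower. Of all genes tested 28.5% were called lower and 47.5% in either direction. The median log2 change was -0.24 in this list and -0.07 over all genes tested. Svbp, the partner of the vasohibins that remove the terminal tyrosine of alpha-tubulin, had 43.9 and 41.8 TPM with GAFCP, against 55.5, 53.1, 55.1 and 54.2 TPM in controls (log2 change -0.34; limma adjusted p = 4.6e-04). Vash2, one of those vasohibins, fell by 0.55 (limma adjusted p = 0.0013). Ttl, the ligase that puts the tyrosine back, averaged 7.501 ± 0.17 TPM with GAFCP (SD, n = 2) and 8.94 ± 0.69 TPM in controls (SD, n = 4) and did not pass (limma adjusted p = 0.0608), though it did under 4 alternatives, among them leaving out control library 3 (adjusted p = 0.0115). Atat1, which acetylates alpha-tubulin, fell by 0.49 (limma adjusted p = 0.0012). Hdac6, which removes that acetyl group, fell by 0.26 (limma adjusted p = 0.0093), a call lost without GAFCP library 2 (adjusted p = 0.0881). Ttll3, a ligase that adds glycine to the tails, fell by 0.57 (limma adjusted p = 4.1e-04). Agbl3, a carboxypeptidase that trims glutamate from them, fell by 0.79 (limma adjusted p = 6.5e-04). The count of falls in this list was 6 without GAFCP library 1, 7 without GAFCP library 2 and 12 without control library 3.

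Genes that bind, sever or track microtubules moved in both directions. Of 31 tested, 6 rose and 10 fell, 51.6% called against 47.5% of all genes tested, with a median log2 change of -0.01. Katna1, a microtubule-severing enzyme, had 30.4 and 32.4 TPM with GAFCP, against 23.3 to 24.4 TPM in controls, and rose by 0.38 (limma adjusted p = 6.1e-04). Stmn1, which binds free dimers and promotes disassembly, had 196.6 and 192.2 TPM with GAFCP, against 240.6, 282.9, 251.6 and 247.6 TPM in controls, and fell by 0.39 (limma adjusted p = 0.0015). Map1lc3b, known above all for autophagy, fell by 0.43, the end-binding gene Mapre2 by 0.60 and the minus-end gene Camsap3 by 0.55 (limma adjusted p = 5.5e-05, 4.0e-04 and 0.0010). Map4, the main lattice-binding protein outside neurons, rose by 0.23 (limma adjusted p = 0.0274) but lost its call when GAFCP library 1 (adjusted p = 0.105) or GAFCP library 2 (adjusted p = 0.132) was left out. Mapt, which encodes tau, averaged 0.536 TPM with GAFCP and 0.861 TPM in controls and was under the level tested. The number of rises in this list was 3 without either GAFCP library and 12 with median-of-ratios scaling.

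Actin, the other abundant cytoskeletal monomer, was higher. Actb had 2859 and 2933 TPM with GAFCP, against 2217, 2280, 2105 and 2213 TPM in controls, and Actg1 had 3500 and 3544 TPM with GAFCP, against 2671, 2779, 2647 and 2724 TPM in controls. They rose by 0.39 and 0.38 on the log2 scale (limma adjusted p = 7.5e-05 and 2.8e-05), more than Tuba1b did. Acta2, the smooth muscle and myofibroblast actin, had 30.5 and 31.5 TPM with GAFCP, against 10.9 to 11.99 TPM in controls, and is also one of the fibroblast and pericyte markers below. In all 4 of 6 actin genes were called higher, or 66.7%, where 19.0% of all tested genes were called higher and 47.5% in either direction. Between 3 and 5 were called higher over the alternatives. Acta1, one of the 4, lost its call in 12 of them, such as quantile normalization and the fit without control library 1. Its level was low, averaging 3.39 TPM with GAFCP and 1.45 TPM in controls. Of 16 mitosis genes 5 rose and 3 fell, so 8 of 16 were called, a share near the 47.5% of all genes tested. Top2a rose by 0.86 and Cdk1 by 0.63, while Ccnb2 fell by 0.57 (limma adjusted p = 8.8e-05, 7.2e-05 and 2.3e-05). The number of rises among mitosis genes was 11 with median-of-ratios scaling and 9 with quantile normalization. The number of falls was 2 in several alternatives, among them the fits with no filter, with no variance trend and without control library 1.

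**Figure D5:**
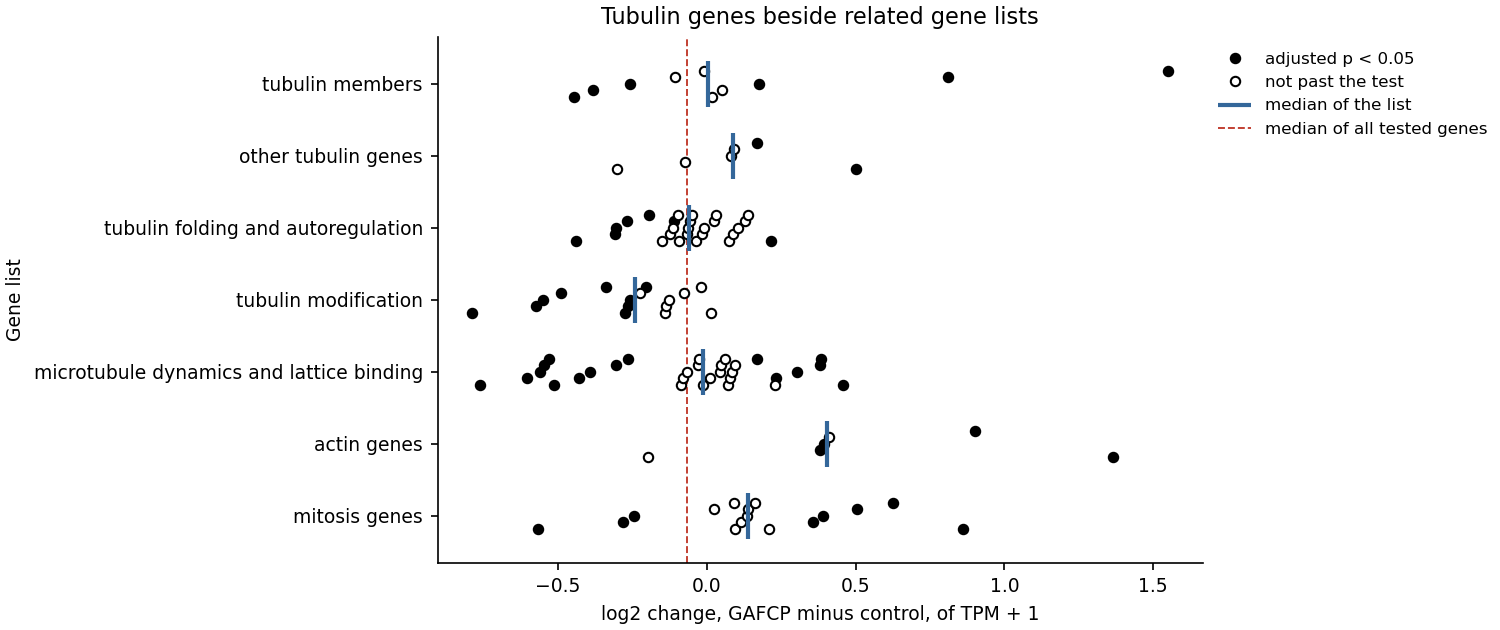
Each circle is the log2 change (GAFCP minus control, on TPM + 1) of 1 tested gene, filled where the limma adjusted p was under 0.05, for the tubulin members and 6 related lists, and blue bars are list medians. The tubulin modification list has its median at -0.24 with no filled circle above 0, and Tubb3 at 1.55 lies beyond every gene of the other lists.

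Transcripts of other cell types moved with the treatment. Marker counts here are of genes past the limma test, beside 19.0% of all tested genes called higher and 28.5% called lower with GAFCP. In the GAFCP libraries 12 of 12 macrophage and monocyte markers were higher, their summed level lying between 5779 and 5851 TPM, against 1460 to 1564 TPM in controls. All 10 pan-leukocyte markers were higher (332.1 to 341.6 TPM with GAFCP, against 110.8 to 133.0 TPM in controls), as were 8 of 8 tested T and NK cell markers (34.2 to 37.8 TPM, against 5.04 to 7.02 TPM in controls) and 7 of 10 fibroblast and pericyte markers (338.1 to 339.8 TPM, against 201.8 to 222.1 TPM in controls), while Rgs5, a pericyte marker of that list, was lower (2.21 TPM with GAFCP and 4.69 TPM in controls; limma adjusted p = 0.0015). Of 6 platelet and megakaryocyte markers the 3 tested were higher (136.7 to 147.9 TPM for all 6, against 59.8 to 66.7 TPM in controls), with most of the sum from Pf4 (132.6 TPM with GAFCP and 56.8 TPM in controls). Of the others, Gp1bb averaged 0.165 TPM with GAFCP and 0.605 TPM in controls, and Tubb1 and Gp9 were listed at 0 in both GAFCP libraries. In contrast, 3 of 5 tested endothelial markers were lower and 1 was higher (19.9 to 21.7 TPM, against 27.6 to 30.97 TPM in controls). The labelled tumor epithelium was checked by 10 markers, of which 6 were lower and 1 higher with GAFCP. They summed to 5185 to 5217 TPM with GAFCP and to 6814 to 7198 TPM in controls. Krt8 averaged 1544 TPM with GAFCP and 2321 TPM in controls, Krt18 1691 TPM with GAFCP and 1766 TPM in controls, and Epcam 1.54 TPM with GAFCP and 12.8 TPM in controls. The part of these other cells in the tubulin values was not tested. In bulk RNA, fewer cells of a type and less RNA per cell cannot be told apart.

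Neuronal and Schwann cell markers were examined because Tubb3, Tubb2a, Tubb2b and Tuba1a are typical of the nervous system. These 12 markers summed to 2.86 and 3.37 TPM with GAFCP, against 21.7, 23.5, 4.65 and 4.54 TPM in control libraries 1 to 4. No marker of the 12 exceeded 0.815 TPM in the GAFCP libraries. Of the 6 tested, 0 rose and 2 fell (Map2 and S100b), or 33.3% called, against 47.5% of all tested genes. Tubb3 ranged from 45.4 to 48.1 TPM over the 4 control libraries. The part of nerve cells in the tubulin values was not tested. With control libraries 1 and 2 alone, or 3 and 4 alone, the same counts of 3 higher and 3 lower members were called.

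Likeness of pattern was measured as Pearson's r of log2(TPM + 1) over the 6 libraries, which fall into the groups compared, so that it mostly reflects the difference between them. The genes most like Tubb3 were H2-T23 (r = 0.9999), Akr1b8 (r = 0.9998) and Tmem45a (r = 0.9998), and 1517 of 13710 genes had an r over 0.95. Those most like Tuba4a were Uqcrh (r = 0.9994), Klc3 (r = 0.9988) and Eif3h (r = 0.9984), with 1689 genes over 0.95.

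Promoter windows from RefSeq (GRCm38.p6) were matched for 8 of the 10 genes, and the 250 bases before the start were searched on both strands. Tubb2b and Tubb6 had no matched window, so nothing below covers them. The letters GGGCGG, the core of a GC box, occurred in 6 of the 8, against 32.7% of all 32851 windows. CCAAT occurred in 5 of the 8, against 33.8% of all windows, and TATAAA in Tubb2a alone, against 12.4%. The Tubb3 window held GGGCGG at 2 places. The interferon regulatory factor pattern, searched by its core letters, was in none of the 8 windows (2.98% of all), and neither was TTCNNNGAA, the STAT pattern (7.02% of all). Such matches describe letters only.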

How the data were processed

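Per the labels' protocols, a company sequenced RNA of sorted tumor cells. The deposited values are TPM for 24493 genes, made by the authors with Salmon on mm10, per the submitters' processing notes. The sources used here name neither the Salmon version nor its annotation. Groups and replicate numbers came from the sample titles. The 10 members, the related gene lists and the rule for named genes were chosen with earlier results of these data known. Named genes were all members, other tubulin genes, the called genes ranked lowest by p in each list (at most 4), Ttc5, Ttl, Stmn1, Mapt, Map4, Hdac6, Actb and Actg1, with the 3 genes most like the members of largest rise and fall. The text gives these in part. Cct5, Vash1, Vash2, S100b, Map2, Krt8, Krt18, Epcam, Rgs5, Pf4, Gp1bb and Gp9 were named after their values were seen.

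A gene was tested if 2 or more libraries reached 1 TPM (13720 genes), with limma 3.58.1 in R 4.3.3 on log2(TPM + 1), fitting a trend of variance with level (4 residual degrees of freedom). The pseudocount shrinks the changes of low genes. Every log2 change has the controls subtracted from GAFCP. In simulated data with the 13720 genes and libraries of this comparison, 50 genes were changed at each of 1.5-fold, 2-fold, 4-fold and 8-fold. At 1.5-fold 80% were recovered, and 100% at 2-fold, 4-fold and 8-fold, with 11 false calls. Data with no change gave 0 calls. In the measured data 6515 genes were called. Recovery with that many changed genes was not tested, nor was the number of false calls. TPM are not counts, so no count model was fitted. Sums and shares were compared with exact permutation tests (scipy 1.17.1). Sequences and positions came from GENCODE M21 on mm10. Alternatives changed the pseudocount, filter, scaling, variance model, replicate block and libraries used.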

Additional observations from a re-analysis of the deposited data

How the results depend on the processing

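Tubb3, Tubb6, Tuba4a and Tubb4b kept their direction and their call in every alternative fit, as did Tubb2b in every fit that had it as a gene of its own, and Tuba1b lost its call under quantile normalization only (log2 change 0.030). The number of members called higher was 5 with median-of-ratios scaling, where Tuba1c and Tubb5 were added, and 3 in every fit that left out 1 library. The number called lower was 3 in all fits but that with the near-identical genes summed, where Tuba1a, Tuba1b, Tuba1c, Tubb2a and Tubb2b were not separate genes and 2 members were called higher and 2 lower. Over the fits without 1 library the count over all genes ranged from 4258 to 7226. The log2 difference of the alpha sum was 0.13 with median-of-ratios scaling, 0.035 after rescaling without the 50 most abundant genes and -0.033 under quantile normalization, and that of the beta sum was 0.24 with median-of-ratios scaling. The causes were not tested.

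Among genes not called, signs turned as follows. Tuba1a was 0.064 with median-of-ratios scaling, 0.0026 with control libraries 3 and 4 only and ranged from -0.033 to 0.014 without 1 library. Tuba1c was -0.0053 and Tubb5 -0.025 under quantile normalization. Tubb5 was -0.0089 after rescaling without the 50 most abundant genes, -0.0019 with control libraries 1 and 2 only and ranged from -0.00048 to 0.039 without 1 library. Tubb2a ranged from -0.22 to 0.0028 without 1 library.

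With the replicate number as a block the counts of members stayed at 3 higher and 3 lower and 5894 genes were called in all, while Tubb5 was -0.0019. Only numbers 1 and 2 occur in both groups, and the labels do not say that a number marks a shared animal or day. Same-numbered libraries' deviations correlated at -0.019 over 13720 genes. With 2 libraries on each side that is a single contrast, so it cannot decide whether an animal or day was shared. In fits without a GAFCP library the remaining one is assumed to vary as the controls do. No depth is known, so no counting error could be given, and 2 GAFCP libraries limit every comparison.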
